A study of Mus musculus with 10 samples.

Results

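The genes examined here are 10 dual-specificity MAP kinase phosphatases, Dusp1, Dusp3, Dusp4, Dusp5, Dusp6, Dusp7, Dusp8, Dusp10, Dusp16 and Dusp26, out of 23337 genes in the counts table. They were picked by symbol with the knockout-against-heterozygote values already known, Dusp26 being among the largest rises, so their differences between the groups are given as a description without p-values. Messenger RNA was measured by RNA-seq in cardiomyocytes, the beating muscle cells of the heart, from 10 mice. In the knockout group (5 mice) both Actn2 alleles were floxed (Actn2F/F), which means flanked by sites where the recombinase Cre cuts. In the heterozygote group (5 mice) 1 allele was floxed and the other was not (Actn2F/+). Both groups received the same adeno-associated virus, AAV9-cTNT-Cre, on postnatal day 1, at 3.6 in units of 1e8 viral genomes per gram, and cells were taken on postnatal day 14. The controls therefore also carried Cre, with 1 floxed allele for it to act on. Recombination is limited to cells that took up the virus and use the cardiac troponin T promoter. Cells were released by collagenase perfusion of the heart and sorted by fluorescence. The labels do not give the sorting marker. In such bulk samples fewer cells of a type and less RNA per cell cannot be told apart.

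MAP kinases are switched on when an upstream kinase phosphorylates a threonine and a tyrosine in their activation loop. Dual-specificity phosphatases remove both phosphates and switch the kinase off. The inducible nuclear members (Dusp1, Dusp4, Dusp5) are themselves transcribed in response to MAP kinase signalling, the cytoplasmic members Dusp6 and Dusp7 act on ERK, and Dusp8, Dusp10 and Dusp16 act mainly on the stress kinases JNK and p38. Dusp3 and Dusp26 are small atypical members that lack the kinase-docking domain of the others. In the heart these pathways are known for their part in hypertrophic growth and in the response to stress.

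Actn2, which encodes the Z-line crosslinker alpha-actinin-2, was at 2674 to 3470 CPM in the heterozygotes and 1144 to 1284 CPM in the knockouts. CPM are counts per 1000000 of the TMM-scaled library total. Total counts ran from 8086656 to 25237696 per sample. Cardiomyocyte markers dominated both groups, with the 8 genes of that list summing to 99191 to 122973 CPM in the heterozygotes and 93721 to 119250 CPM in the knockouts. Of the 11870 genes with enough reads to be tested, 2241 were called (edgeR quasi-likelihood test, adjusted p below 0.05), 1216 higher and 1025 lower in the knockout, a share of 54.3% higher. With scaling by library totals alone the split was 1684 higher and 760 lower, or 68.9% higher. With the mean level of the endothelial markers as a covariate 1086 genes were called. In the main fit 1 of the 8 cardiomyocyte markers was called, Tnni3, which was lower in the knockout. Its means were 6803 CPM in the heterozygote and 4712 CPM in the knockout (log2 fold change -0.53, SE 0.0967, edgeR adjusted p 0.00165).

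The 10 genes differed in both directions. Dusp26 and Dusp8 had the largest differences upward, Dusp3 and Dusp16 were higher by less, Dusp1 and Dusp5 were lower, and Dusp6, Dusp7 and Dusp10 differed by little beside their spread. Of the 10 genes, 9 passed the filter on low counts. Dusp4 did not, with 0 to 32 counts per sample. The fit across all genes called 6 of the 9, 4 higher (Dusp3, Dusp8, Dusp16, Dusp26) and 2 lower (Dusp1, Dusp5), where 18.9% of all tested genes were called, 10.2% higher and 8.64% lower. Because the genes were chosen with this contrast in view, nothing is read from that count. It fell to 3 (Dusp3, Dusp8 and Dusp26) without knockout 2. The median log2 fold change of the 9 was 0.15, beside 0.0023 over all tested genes. Single animals moved it, to 0.07 without heterozygote 2, 0.08 without knockout 1 or 2, 0.24 without heterozygote 4 and 0.23 without knockout 5. In 3 of them (Dusp8, Dusp16, Dusp26) every knockout lay above every heterozygote, where 14.7% of all tested genes had groups that did not overlap, 8.41% with all knockouts above and 6.32% with all below.

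**Figure D1:**
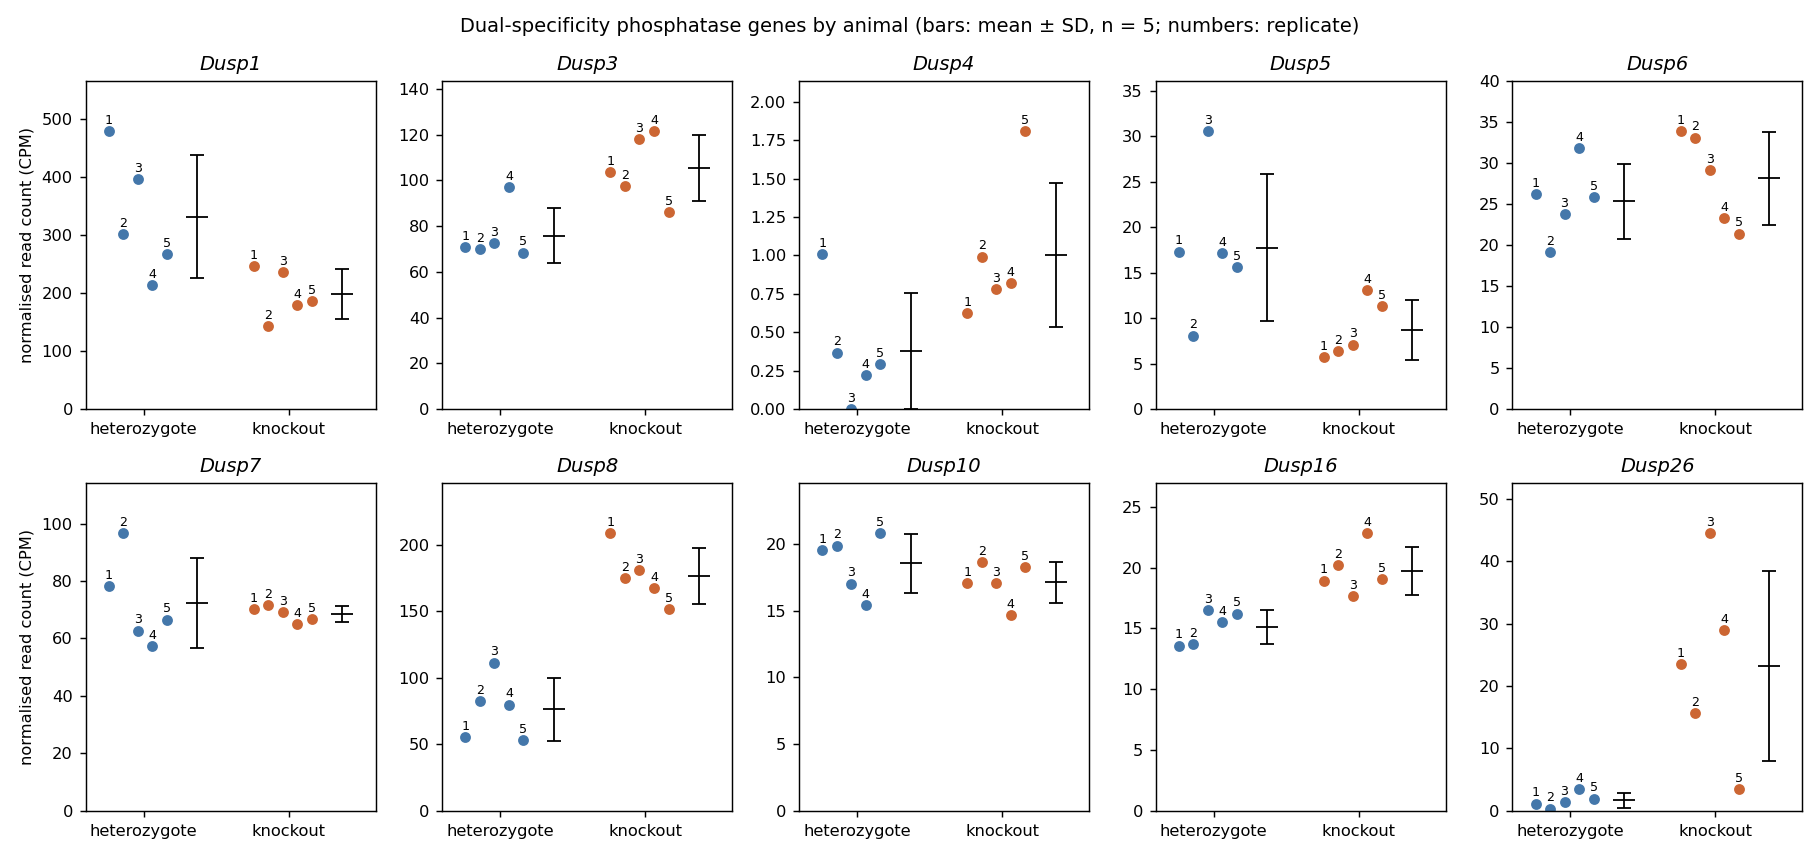
Normalised read count (CPM, vertical axis, from 0) of each of the 10 genes in the 5 heterozygotes (blue) and 5 knockouts (orange), 1 point per animal with its replicate number, and the mean ± SD beside each group. Dusp8 and Dusp16 separate the groups, Dusp26 does so except that knockout 5 (3.50 CPM) lies just above heterozygote 4 (3.44 CPM), and Dusp6, Dusp7 and Dusp10 overlap broadly.

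Dusp26 is an atypical phosphatase without a docking domain, also known as MKP-8, and lies on chromosome 8 at 31089662 to 31097047 (mm10, plus strand, 5 exons). Its level was 1.17, 0.368, 1.41, 3.44 and 1.97 CPM in heterozygotes 1 to 5, and 23.5, 15.7, 44.5, 28.9 and 3.50 CPM in knockouts 1 to 5. Knockouts 1 to 4 stood well above all heterozygotes, whereas knockout 5 was at the level of heterozygote 4. In those 2 libraries the gene had 62 and 31 counts, and their exact Poisson 95% intervals of 2.69 to 4.49 and 2.34 to 4.88 CPM, which cover counting error only, overlapped. The means were 23.2 ± 15.3 CPM in the knockout and 1.67 ± 1.14 CPM in the heterozygote (SD, n = 5 each), a log2 fold change of 3.81 (SE 0.588), or 14.0-fold. By fold change it was the 20th largest rise among 11870 tested genes, the property for which it was picked. Without knockout 5 the log2 fold change was 4.09.

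Dusp26 is a gene of brain and skeletal muscle as well as heart, so the markers of those tissues are given beside it. The skeletal muscle factors Myod1, Myf6 and Pax7 had 0 counts in all 10 libraries, and 7 of the 8 skeletal muscle markers stayed below 1 CPM in every library. The exception was Mybpc2, a fast-fibre myosin-binding protein, with means of 36.9 CPM in the heterozygote and 290.2 CPM in the knockout, so that the sum of the list ran from 23.2 to 51.1 CPM in the heterozygotes and from 232 to 360 CPM in the knockouts. Of the 8 neural and glial markers 5 stayed below 1 CPM in every library, and the sum of the list was 19.3 to 32.0 CPM in the heterozygotes and 33.0 to 36.6 CPM in the knockouts. In that list Uchl1 was called higher (1.014 ± 0.199 SE on the log2 scale, edgeR adjusted p 0.00274) and Dbh lower (-0.72, SE 0.235, edgeR adjusted p 0.0467).

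The other atypical member, Dusp3, also called VHR, acts on ERK and JNK and is on chromosome 11 at 101971144 to 101984791 (minus strand, 3 exons). It was at 70.8, 69.9, 72.7, 97.2 and 68.5 CPM in the heterozygotes and 103, 97.7, 118, 122 and 86.2 CPM in the knockouts. A single heterozygote, number 4, reached the knockout range, and knockout 5 was the lowest of its group. The log2 fold change was 0.47 (SE 0.122), from 75.8 ± 12.1 to 105 ± 14.6 CPM (SD, n = 5 each). An antisense gene, Gm20659, shares exon bases with Dusp3 in the GENCODE annotation, and counting without strand cannot separate their reads.

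Among the phosphatases of the stress kinases, Dusp8 stood out. It lies on chromosome 7 at 142079487 to 142095284 (minus strand, 7 exons) and was at 55.7, 82.5, 111, 79.8 and 53.1 CPM in heterozygotes 1 to 5, and at 209, 175, 181, 167 and 151 CPM in knockouts 1 to 5. The lowest knockout, number 5, was above the highest heterozygote, number 3. The means were 177 ± 21.2 CPM in the knockout and 76.5 ± 23.7 CPM in the heterozygote (SD, n = 5 each), a log2 fold change of 1.21 (SE 0.178), or 2.32-fold. The difference of its means, 100.3 CPM, was the largest upward among the 10 genes.

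Dusp16 is the closest relative of Dusp8 in the family and is known as a JNK phosphatase (chromosome 6, 134715473 to 134792628, minus strand, 7 exons). It was at 13.6, 13.7, 16.5, 15.5 and 16.2 CPM in the heterozygotes and 18.9, 20.2, 17.6, 22.9 and 19.05 CPM in the knockouts, without overlap. Its difference was small and its spread narrow, with a log2 fold change of 0.39 (SE 0.117). The third of these phosphatases, Dusp10, also called MKP-5 (chromosome 1, 184034461 to 184075636, plus strand, 4 exons), ranged from 15.4 to 20.8 CPM in the heterozygotes and from 14.7 to 18.6 CPM in the knockouts. Its log2 fold change of -0.11 (SE 0.121) was within its error. Dusp8, Dusp16 and Dusp10, which share substrates, thus ranged from a 2.32-fold difference to one within its error.

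**Figure D2:**
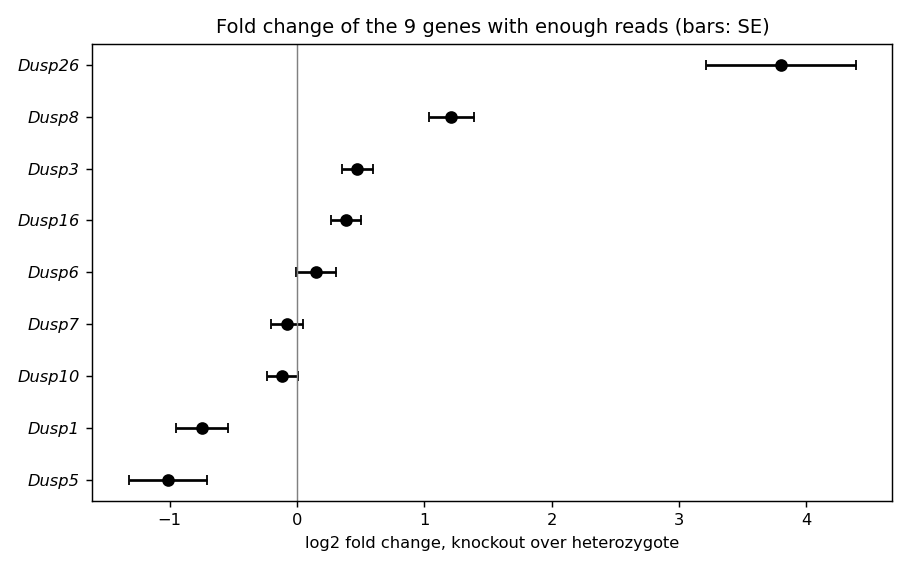
Log2 fold change of knockout over heterozygote (horizontal axis) for the 9 genes that passed the filter on low counts, with bars of 1 standard error from the edgeR fit over 10 animals. The values run from -1.02 for Dusp5 to 3.81 for Dusp26, and the bars of Dusp6, Dusp7 and Dusp10 include 0.

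Dusp1, also called MKP-1, is the immediate early phosphatase of the family, acts on p38, JNK and ERK in the nucleus, and lies on chromosome 17 at 26505591 to 26508472 (minus strand, 4 exons). It was at 479, 301, 396, 213 and 266 CPM in heterozygotes 1 to 5 and at 247, 143, 235, 179 and 185 CPM in knockouts 1 to 5. Heterozygotes 1 and 3 were far above the rest, and heterozygote 4 lay inside the knockout range. The means were 331 ± 106 and 198 ± 42.9 CPM in heterozygote and knockout (SD, n = 5 each), a log2 fold change of -0.74 (SE 0.203). It was -0.57 without heterozygote 1.

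Immediate early genes respond within minutes to a stimulus and also to the dissociation of tissue, so their levels are set beside Dusp1. The sum of the 24 genes of the list was 2268, 1524, 2364, 978 and 1197 CPM in heterozygotes 1 to 5, and 1334, 1193, 1858, 1584 and 1244 CPM in knockouts 1 to 5. Heterozygotes 1 and 3, the highest in Dusp1, were also the highest in this sum, and heterozygote 4 was the lowest in both. Fos, a part of the AP-1 transcription factor, was at 254, 118, 160, 19.8 and 103 CPM in the heterozygotes, in the same order of animals as Dusp1, and at 35.2 to 113 CPM in the knockouts. In the knockouts the order differed, with Dusp1 highest in knockout 1 and Fos highest in knockout 3. On the log2 scale Fos differed by -1.04 ± 0.475 (SE; edgeR adjusted p 0.147) and Egr1 by -0.78 ± 0.384 (edgeR adjusted p 0.178). Jun differed by 0.10 ± 0.303 (edgeR adjusted p 0.862) and Atf3 by 0.42 ± 0.530 (edgeR adjusted p 0.633), so these 4 did not pass the threshold. Without heterozygote 4 both Fos and Egr1 passed it. The sign of Jun and Atf3 turned under other settings (from -0.40 to 0.30 and from -0.10 to 0.89). The part of this variation in the Dusp1 difference was not tested.

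**Figure D3:**
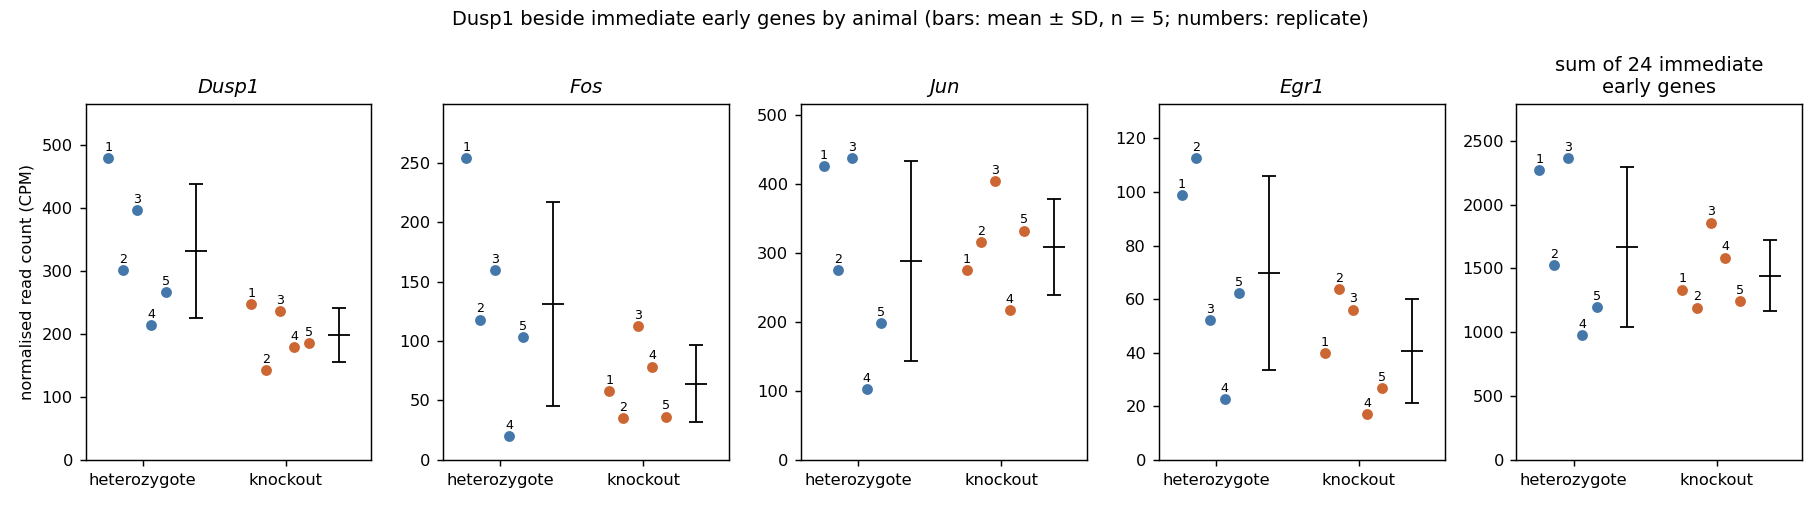
Normalised read count (CPM, vertical axes, from 0) of Dusp1, Fos, Jun and Egr1 and of the sum of 24 immediate early genes, 1 point per animal with its replicate number, and the mean ± SD beside each group of 5. Heterozygotes 1 and 3 are high and heterozygote 4 is low in Dusp1, Fos, Jun and the sum.

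Dusp5, a nuclear phosphatase that acts on ERK, lies on chromosome 19 at 53529318 to 53541322 (plus strand, 4 exons). Its gene model in the table is 1155 bases long, 3 more than the coding bases in GENCODE, so reads in its untranslated regions were not counted. It was at 17.3, 8.10, 30.6, 17.2 and 15.6 CPM in heterozygotes 1 to 5, and at 5.72, 6.41, 7.11, 13.1 and 11.3 CPM in knockouts 1 to 5. Heterozygote 3 was the highest of all, and heterozygote 2 lay among the knockouts. The means were 17.8 ± 8.11 and 8.73 ± 3.28 CPM in heterozygote and knockout (SD, n = 5 each), with a log2 fold change of -1.02 (SE 0.305) and of -0.75 without heterozygote 3. That animal also had the highest sum of 8 leukocyte markers, 38.1 CPM, where the other heterozygotes had 14.0 to 18.96 CPM and the knockouts 8.70 to 11.1 CPM, and the part of this in the result was not tested. An antisense gene, AC137853.2, shares exon bases with Dusp5 in GENCODE.

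Dusp4, the nuclear relative of Dusp1 known as MKP-2 (chromosome 8, 34807610 to 34819894, plus strand, 4 exons), was near the limit of detection. It had 24, 3, 0, 2 and 3 counts in heterozygotes 1 to 5 and 6, 13, 8, 8 and 32 counts in knockouts 1 to 5. In CPM the heterozygotes ran from 0 to 1.0 and the knockouts from 0.624 to 1.81, and heterozygote 1 lay inside the knockout range. The 0 counts in heterozygote 3 allow a level of up to 0.384 CPM (3 counts). No fold change is given at this depth.

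The cytoplasmic ERK phosphatases Dusp6 (MKP-3, chromosome 10, 99263231 to 99267489, plus strand, 3 exons) and Dusp7 (chromosome 9, 106368632 to 106375723, plus strand, 3 exons) overlapped between the groups. Dusp6 ran from 19.1 to 31.8 CPM in the heterozygotes and from 21.4 to 33.9 CPM in the knockouts, with a log2 fold change of 0.15 (SE 0.157). Dusp7 ran from 57.2 to 96.8 CPM in the heterozygotes and from 65.0 to 71.7 CPM in the knockouts, with a log2 fold change of -0.08 (SE 0.126) whose sign turned without heterozygote 2 (0.05) and with scaling by library totals (0.0095). The knockouts were closer together than the heterozygotes in Dusp7, with a coefficient of variation of 3.97% against 21.7%. Dusp6 transcripts are widely used as a readout of ERK activity, which was itself not measured here.

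Knockout 5 differed from the other knockouts in several of the genes. It was the lowest knockout in Dusp26, Dusp8, Dusp3 and Dusp6 and the highest in Dusp4. Its Actn2 level, 1218 CPM, lay within the range of the other 4 knockouts. It was also the only knockout with more than 0.104 CPM of Xist (50.8 CPM). Heterozygotes 3 and 5 had 48.0 and 42.8 CPM, and the other heterozygotes at most 0.222 CPM. In heterozygotes 3 and 5 the sum of 4 Y-linked genes was 0 CPM, and in knockout 5 it was 0.0565 CPM. In the other samples it was 175 to 277 CPM. The samples of each group thus differed in sex. Knockout 5 had the lowest sum of the 10 endothelial markers of all samples, 296 CPM. In Dusp26, heterozygotes 3 and 5 were at 1.41 and 1.97 CPM (11 and 20 counts). What part sex or the endothelial markers had in the Dusp values was not tested.

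To set the genes against each other, CPM were divided by exonic length in kilobases (RPKM). In the heterozygotes Dusp1 was by far the most abundant, with 171 ± 54.6 RPKM (SD, n = 5), followed by Dusp7 at 22.5, Dusp3 at 18.04, Dusp8 at 15.9, Dusp5 at 15.4, Dusp6 at 9.07, Dusp10 at 6.84, Dusp16 at 2.96, Dusp26 at 0.956 and Dusp4 at 0.156 RPKM. From Dusp7 down to Dusp10 each neighbouring pair had overlapping ranges, as did Dusp26 and Dusp4, whereas Dusp1 and Dusp7, Dusp10 and Dusp16, and Dusp16 and Dusp26 did not overlap. In the knockouts Dusp1 was again first at 102 ± 22.1 RPKM, and Dusp8 came second at 36.7 ± 4.39 RPKM, above Dusp3 at 25.1 RPKM in all 5 animals without overlap. Dusp26, next to last in the heterozygotes, stood higher in the order, at 13.3 ± 8.74 RPKM, between Dusp7 at 21.4 and Dusp6 at 10.1 RPKM, with ranges that overlapped both. The level of Dusp5 per length rests on coding bases alone.

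**Figure D4:**
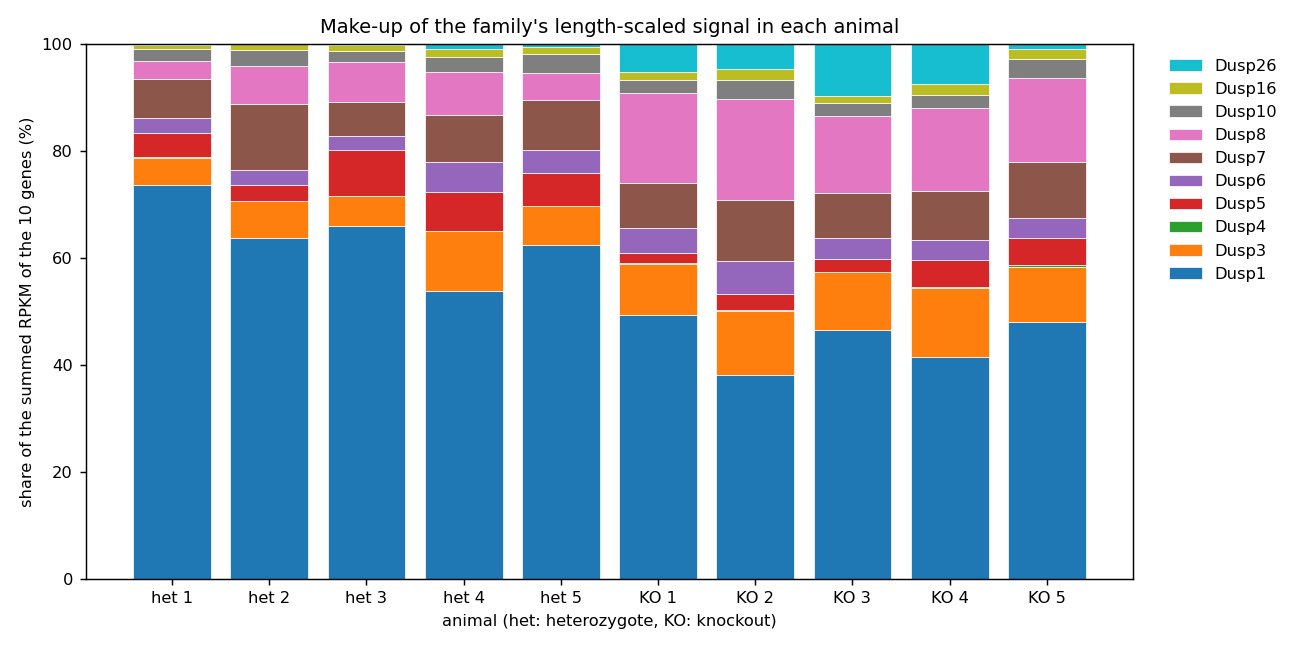
Share of the summed RPKM of the 10 genes (%, vertical axis) taken by each gene in each animal (horizontal axis). The Dusp1 share is 53.7% to 73.7% in the heterozygotes and 38.1% to 49.3% in the knockouts, and the shares of Dusp8 and, in knockouts 1 to 4, of Dusp26 are larger in the knockouts.

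As a share of the summed RPKM of the 10 genes, Dusp1 took 63.9% ± 7.16 in the heterozygotes and 44.7% ± 4.75 in the knockouts (SD, n = 5 each). Dusp8 took 6.22% ± 1.93 and 16.3% ± 1.66, and Dusp26 took 0.404% ± 0.349 and 5.62% ± 3.28, respectively. The sum itself was 262 ± 56.9 RPKM in the heterozygotes and 227 ± 31.8 RPKM in the knockouts, with ranges that overlapped. Without Dusp1 the sum of the other 9 was 91.8 ± 8.60 and 125 ± 13.8 RPKM, a ratio of 1.36, with ranges of 82.9 to 105 and 103 to 139 RPKM. These values follow from the same counts as the differences above and are not separate evidence.

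The stretch of 250 bases before the start site was read from RefSeq (build GRCm38.p6) for the 8 genes that the promoter table holds. Dusp4 and Dusp26 are not among them. The motifs searched, on both strands, were the cyclic AMP response element CRE (TGACGTCA) and its core (TGACGT, which every CRE contains), AP-1 (TGACTCA), the CArG box bound by SRF, the MEF2 site, the TEAD site (GGAATG), the E-box (CACGTG) and the ETS site (CCGGAAG). No base of one motif was shared with another in these 8 windows apart from CRE and its core. The windows of Dusp8, Dusp1 and Dusp5 are shown because these are the genes with the largest differences, in either direction, among the 8. Capitals mark matches, and each sequence runs 5′ to 3′ on the strand of the gene.
Dusp8, chr7:142095285-142095534, minus strand: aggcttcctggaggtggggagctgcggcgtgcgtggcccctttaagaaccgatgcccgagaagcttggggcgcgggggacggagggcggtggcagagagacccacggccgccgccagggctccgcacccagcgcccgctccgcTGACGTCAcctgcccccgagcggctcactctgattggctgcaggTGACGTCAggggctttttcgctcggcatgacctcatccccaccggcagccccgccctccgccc
Dusp1, chr17:26508473-26508722, minus strand: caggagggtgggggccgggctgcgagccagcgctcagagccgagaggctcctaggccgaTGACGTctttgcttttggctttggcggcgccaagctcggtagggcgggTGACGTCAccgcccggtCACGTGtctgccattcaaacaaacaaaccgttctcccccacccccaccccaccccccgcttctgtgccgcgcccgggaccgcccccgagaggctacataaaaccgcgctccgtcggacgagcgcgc
Dusp5, chr19:53528895-53529144, plus strand: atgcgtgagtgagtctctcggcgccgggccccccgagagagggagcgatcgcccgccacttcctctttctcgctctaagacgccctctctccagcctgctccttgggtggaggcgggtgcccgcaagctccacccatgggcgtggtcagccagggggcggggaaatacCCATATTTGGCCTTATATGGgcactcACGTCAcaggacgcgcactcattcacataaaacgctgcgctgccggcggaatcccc

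Dusp8 held 2 full CREs, which begin 107 and 63 bases before the start site. Dusp1 held 1 CRE at 143 bases, a further core at 191 bases and an E-box at 126 bases. Of all 32817 windows of this length in the table, 1.55% held at least 1 CRE and 0.0305% held at least 2. Dusp5 held a pair of adjacent CArG boxes, at 82 and 72 bases, and 1 CRE core at 56 bases, where 1.47% of all windows held a CArG box, 0.0183% held at least 2, and 6.46% held a CRE core. Dusp8, higher in the knockouts, and Dusp1, lower in them, thus both held a CRE. Of the others, Dusp16 held a MEF2 site (2.92% of all windows) and Dusp3, Dusp6, Dusp7 and Dusp10 held none of the 8 motifs. The windows of the 8 genes were 56.4% to 77.2% G or C, where the median of all windows was 52.4%. A match is a description of the letters, not of binding.

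The remaining genes of the family and of the MAP kinase pathways were taken as 7 lists by function, and their calls are from the same edgeR fit, in which 18.9% of all tested genes were called. The median log2 fold change was -0.08 for the other DUSP genes, -0.07 for MAP kinases, 0.07 for upstream kinases, 0.02 for effectors and 0.06 for other phosphatases, beside 0.0023 over all tested genes. Leaving out single animals gave -0.15 to -0.03, -0.11 to -0.04, 0.01 to 0.15, -0.05 to 0.04 and 0.05 to 0.10 in that order, so that the sign for effectors turned, and that for MAP kinases turned with library totals (0.0094). Of the 16 other genes of the DUSP family 8 passed the filter on low counts, of which 1 rose, 2 fell and 5 were not called. Dusp27, a muscle gene whose product has lost the catalytic cysteine, rose from 144 ± 28.1 to 224 ± 33.0 CPM (SD over 5 animals), a log2 difference of 0.64 ± 0.146 (SE; edgeR adjusted p 0.00707). Dusp18 fell from 107 ± 21.1 to 56.9 ± 6.15 CPM (-0.90 ± 0.131 SE on the log2 scale, edgeR adjusted p 0.000289), and Dusp23 fell from 9.65 ± 1.599 to 6.01 ± 1.12 CPM (-0.69, SE 0.176, edgeR adjusted p 0.0134). The calls of Dusp18 and Dusp23 held in each of the 10 leave-one-out fits and that of Dusp27 did too, but the Dusp27 call did not hold with the endothelial covariate. Dusp2, the inducible nuclear phosphatase missing from the 10 genes, had 3 to 32 counts per sample, and the ERK phosphatase Dusp9 had at most 1.

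Among the MAP kinases, which include the substrates of these phosphatases and also atypical kinases, 2 of 12 tested rose and 1 fell. Mapk12, the p38 gamma kinase of striated muscle, rose from 13.6 ± 3.16 to 39.9 ± 7.73 CPM (SD over 5 animals), a log2 difference of 1.55 ± 0.169 (SE; edgeR adjusted p 2.66e-05), and Mapk14, the widely expressed p38 alpha, fell from 95.8 ± 5.96 to 67.2 ± 7.56 CPM (-0.51 ± 0.0949 SE on the log2 scale, edgeR adjusted p 0.00182). Mapk4, an atypical kinase known as ERK4, rose from 4.997 ± 1.82 to 21.1 ± 3.79 CPM (2.11 ± 0.224 SE on the log2 scale, edgeR adjusted p 2.20e-05). In all 3 the groups did not overlap, and each call held in all 19 alternative fits. Mapk3, which encodes an ERK, and the JNK genes Mapk8, Mapk9 and Mapk10 were tested and not called.

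Of the kinases upstream of the MAP kinases, 24 of 27 in the table were tested, 4 rose and 1 fell. Map3k4 rose from 60.4 ± 6.16 to 86.5 ± 5.999 CPM (SD over 5 animals), a log2 difference of 0.52 ± 0.0941 (SE, edgeR adjusted p 0.00164). Map3k14, listed by its family name and known as the NF-kappaB-inducing kinase, rose by 0.78 on the log2 scale (SE 0.198, edgeR adjusted p 0.0126). Its means were 3.80 CPM in the heterozygote and 6.48 CPM in the knockout. It shares exon bases with 1700028N14Rik on the same strand in GENCODE. The calls of Map3k20 (listed as B230120H23Rik; 0.51, SE 0.163, edgeR adjusted p 0.0402), Map2k1 (0.30, SE 0.0961, edgeR adjusted p 0.0443) and Map2k6, which activates p38 (-0.76, SE 0.230, edgeR adjusted p 0.0324), held in 3, 2 and 5 of the 10 leave-one-out fits. None of the 5 calls held with the endothelial covariate.

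The list taken for ERK feedback inhibitors and targets, not all of which are specific to ERK, had 18 tested genes. Of these, 4 rose, 0 fell (0 also with DESeq2 and 0 at an unadjusted edgeR p under 0.05) and 14 were not called. Etv5, an ETS factor induced by ERK signalling, rose from 21.0 ± 6.26 to 57.2 ± 4.20 CPM (SD over 5 animals), a log2 difference of 1.44 ± 0.178 (SE; edgeR adjusted p 8.02e-05) and held its call in all 19 alternative fits. The feedback inhibitor Spry4 rose by 0.55 (SE 0.172, edgeR adjusted p 0.0387), a call that held in 4 of the 10 leave-one-out fits. Mafk, a small Maf factor, and Phlda3, known as a p53 target that restrains AKT, rose by 0.75 (SE 0.191, edgeR adjusted p 0.0138) and 0.73 (SE 0.159, edgeR adjusted p 0.00563), and Mafk shares exon bases with Tmem184a on the opposite strand. The Phlda3 call did not hold with the endothelial covariate. Spry1, Spry2 and Spred1, inhibitors of ERK signalling as Spry4 is, were not called (log2 fold changes of 0.04, -0.11 and 0.16, edgeR adjusted p 0.918, 0.714 and 0.592). Spred2, a further inhibitor, was not called either but was farther from 0 (0.36, SE 0.151, edgeR adjusted p 0.113). These inhibitors are named outside the rule, with their values known. Other genes not called were farther from 0, such as Epha2 (0.84, edgeR adjusted p 0.0535) and Plaur (-0.81, edgeR adjusted p 0.251). At an unadjusted edgeR p under 0.05, 7 genes of the list were higher and 0 lower. The median of the list was 0.17, beside 0.0023 over all tested genes. It was 0.03 without heterozygote 2, 0.26 without heterozygote 5, 0.31 without heterozygote 3, 0.28 without knockout 5, 0.29 without knockout 2 and 0.44 with the endothelial covariate.

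Of the 20 tested immediate early genes 1 rose and 5 fell, and the median of the list was -0.56. Without heterozygote 3, the highest in their sum, the median was -0.23, and with the endothelial covariate it was -0.33. Klf4 (-0.97 ± 0.196 SE on the log2 scale, edgeR adjusted p 0.00333) and Klf2 (-0.82, SE 0.167, edgeR adjusted p 0.00333) fell with calls that held in each of the 10 leave-one-out fits. Both are also genes of endothelial cells. Neither call held with the endothelial covariate, with which calls over all genes went from 2241 to 1086. The level behind that covariate was itself mostly lower in the knockouts, so it cannot be fully separated from genotype. The part of endothelial cells in these falls was not tested. Zfp36, whose protein destabilises cytokine messenger RNA, was the fifth gene to fall (-0.55, SE 0.141, edgeR adjusted p 0.0146). It lies outside the rule for named genes and is given because it completes the count. Junb (-0.81, SE 0.265, edgeR adjusted p 0.0459), Ier2 (-0.58, SE 0.187, edgeR adjusted p 0.0437) and the gene that rose, Ier5 (0.89, SE 0.296, edgeR adjusted p 0.0492), held their calls in 2, 3 and 1 of the 10 leave-one-out fits. Dusp1, an immediate early gene by its kinetics, had a log2 fold change of -0.74, below the median of this list.

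**Figure D5:**
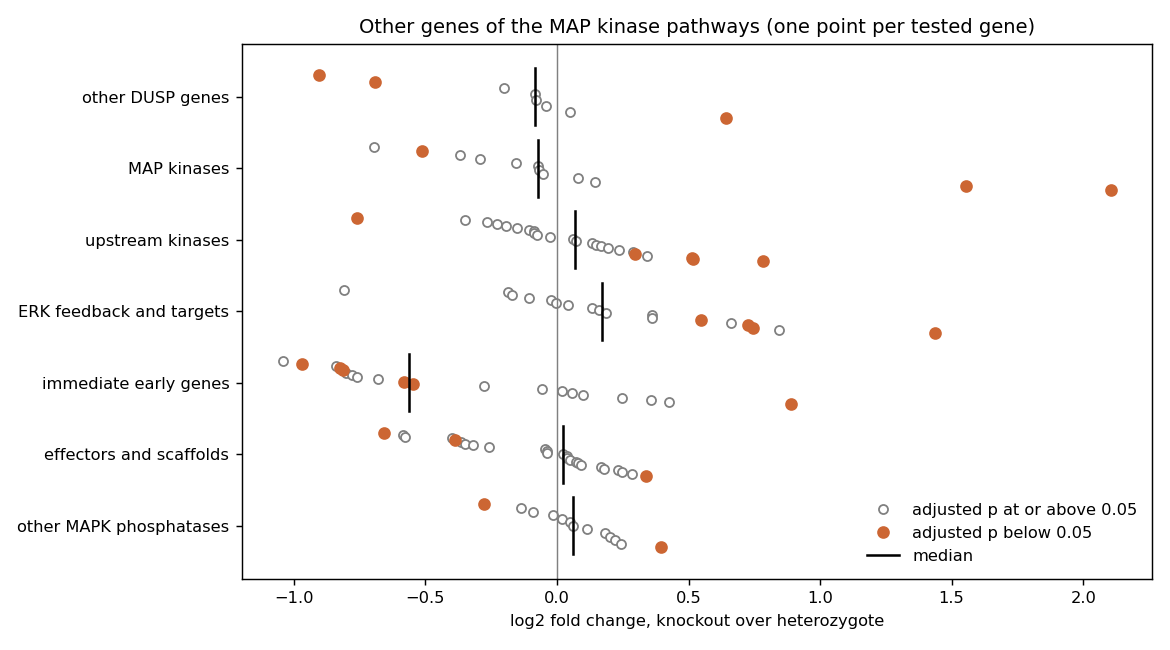
Log2 fold change of knockout over heterozygote (horizontal axis) of each tested gene in 7 lists of genes around the 10 phosphatases, 1 point per gene, filled where the edgeR adjusted p was below 0.05, with the median of each list as a black line. The medians lie between -0.56 for immediate early genes and 0.17 for ERK feedback genes and targets, and Mapk4 (2.11), Mapk12 (1.55) and Etv5 (1.44) are the points farthest to the right.

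Downstream of the kinases, 25 effector and scaffold genes were tested, of which 1 rose, 2 fell and 22 were not called. Mapkapk3, a kinase activated by p38, fell from 58.2 ± 9.002 to 36.8 ± 5.05 CPM (SD over 5 animals), a log2 difference of -0.66 ± 0.122 (SE; edgeR adjusted p 0.00183), and its relative Mapkapk5 by -0.39 on the log2 scale (SE 0.110, edgeR adjusted p 0.0239). Elk4, an SRF partner that MAP kinases phosphorylate, rose by 0.34 (SE 0.111, edgeR adjusted p 0.0464) with a call that held in 1 of the 10 leave-one-out fits. The Mapkapk5 call held in 8 of those and was lost with library totals and with the endothelial covariate. Mapkapk5 and Elk4 share exon bases with other genes in GENCODE. With DESeq2 the list had 1 higher and 5 lower. The list of phosphatases of other families in MAP kinase signalling, not all of which act on the kinases themselves, had 13 tested genes. Ptpn11, the tyrosine phosphatase SHP2, rose (0.40, SE 0.117, edgeR adjusted p 0.0291). Ppp2r5a, a PP2A regulatory subunit that shares exon bases with Tmem206, fell (-0.28, SE 0.0815, edgeR adjusted p 0.0279). These calls held in 4 and 3 of the 10 leave-one-out fits.

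Markers of other cell types that the sort could have let through differed in part between the groups. The sum of the 10 endothelial markers was 438 to 675 CPM in the heterozygotes and 296 to 483 CPM in the knockouts, with Egfl7 called lower (-0.65 ± 0.145 SE on the log2 scale, edgeR adjusted p 0.00612). All 10 of these markers had a negative log2 fold change, so a fit with their mean as a covariate cannot fully separate it from genotype. With their mean as a covariate the log2 fold changes of the genes were 4.57 for Dusp26, 1.52 for Dusp8, 0.74 for Dusp3, 0.49 for Dusp16, -1.04 for Dusp1 and -0.79 for Dusp5. The first 4 and Dusp1 were thus farther from 0 than without it, and Dusp5 was closer. Fibroblast markers summed to 329 to 538 CPM in the heterozygotes and 318 to 648 CPM in the knockouts, and the smallest edgeR adjusted p among the 7 tested was 0.332 (Dcn). Of 6 mural markers 1 was called, Cspg4, which was higher (1.84, SE 0.142, edgeR adjusted p 1.23e-06), with means of 36.9 CPM in the heterozygote and 132 CPM in the knockout. The other mural markers all had negative log2 fold changes, from -0.33 (Pdgfrb) to -0.65 (Myh11). The sum of the mural list ran from 175 to 297 CPM in the heterozygotes and from 199 to 307 CPM in the knockouts. Of 4 tested leukocyte markers Csf1r was called lower (-0.86, SE 0.240, edgeR adjusted p 0.0216).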

How the data were processed

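The authors deposited whole-number counts of reads per gene, not normalised. Per the file headers they were made with featureCounts 1.5.1 (4 threads, default options) against the UCSC mm10 annotation in an archive of 2012, without strand. The submitters' processing notes name STAR 2.5.3a, CASAVA 1.8 and Subread 1.5.2. Per the labels' protocols poly(A) RNA (10 ng) was amplified over 8 PCR cycles, and libraries were built by tagmentation of 500 pg of the product. Of 14 count columns 10 match the samples by name and the other 4 were not used. The deposited exonic length of each gene, in bases, was used for RPKM.

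Genes were kept by filterByExpr (minimum count 10), scaled with TMM, and tested by the quasi-likelihood method of edgeR 4.0.16 in R 4.3.3, with 10 samples without covariates, with Benjamini-Hochberg adjustment over 11870 genes and a threshold of 0.05. The standard error is the fold change divided by the square root of F. The procedure was tested on simulated data. Depths of 8086656 to 25237696 counts give a 3-count floor of 0.119 to 0.371 CPM before TMM scaling, and Poisson intervals cover counting error only. The labels do not say how the 5 samples of a group relate beyond being biological replicates. The p-values set the group difference against the spread between these samples. The genes and lists were chosen with earlier results of these data known. Named are the 10 genes and, in each list, the 4 largest called rises and falls at a mean of at least 5 CPM, besides Fos, Jun, Egr1, Atf3 and Actn2. Markers were listed for endothelial, fibroblast, mural, leukocyte, neural or glial, skeletal muscle and cardiomyocyte cells. Alternatives were RLE, upper-quartile and library-total scaling, no filter, a mean of at least 5 CPM, the replicate number as a block, DESeq2 1.42.0, voom with quality weights in limma 3.58.1, an endothelial covariate and leaving out each animal.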

Additional observations from a re-analysis of the deposited data

Results flagged for a closer look

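In 26 groups of 5 values (total counts, Actn2, the 10 genes and their RPKM sum, in each genotype), 2 held an extreme animal separated from its nearest neighbour by more than 0.71 of the spread from lowest to highest. By chance about 1 in 20 groups would. Heterozygote 1 had 25237696 counts, and the next deepest heterozygote had 10309615 (gap 0.870 of the range). Dusp3 was at 97.2 CPM in heterozygote 4 and at 72.7 CPM or less in the other heterozygotes (gap 0.854 of the range), and its log2 fold change was 0.58 without that animal.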

How the results depend on the processing

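Of 171 refits of the log2 fold changes of the 9 tested genes (19 alternatives each), 169 moved by less than the spread between replicates, and 0 reversed the direction of a called gene. The exceptions were Dusp3 (0.74) and Dusp10 (-0.32) with the endothelial covariate. A group mean can hardly move by more than that spread when 1 of 5 animals is left out. By this measure those refits therefore say little. Leaving out single animals gave ranges of 3.42 to 4.20 for Dusp26, 1.11 to 1.39 for Dusp8, -0.87 to -0.57 for Dusp1 and -1.20 to -0.75 for Dusp5. The number of the 9 that were called ran from 3 to 6 when single animals were left out. Dusp5 was not called without heterozygotes 1 or 3 or knockouts 1, 2 or 3, Dusp16 without heterozygote 1 or knockouts 2, 4 or 5, and Dusp1 without knockout 2, each in turn. Neither Dusp5 nor Dusp16 was called with the endothelial covariate, nor Dusp5 with library totals.

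The endothelial covariate left 1086 calls over all genes, and by list 0 among upstream kinases (2 higher and 2 lower at an unadjusted edgeR p under 0.05, and 6 calls with DESeq2 without the covariate), 2 among immediate early genes, 1 among effectors and 0 among other phosphatases (0 higher and 1 lower unadjusted, and 3 calls with DESeq2 without the covariate). Other phosphatases had 1 call with no filter, and effectors had 6 with DESeq2. Without single animals the calls ran from 1699 to 2258 over all genes, 2 to 6 for upstream kinases, 3 to 5 for ERK feedback genes, 3 to 7 for immediate early genes, 1 to 4 for effectors and 0 to 3 for other phosphatases, with 0 by edgeR in 5 of the 10 fits, those without heterozygotes 3 or 5 or knockouts 1, 2 or 3 (2 to 4 higher and 1 lower unadjusted). The counts for MAP kinases and other DUSP genes stayed at 3 each. The cause was not tested.

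Same-numbered samples of the groups correlated at -0.0604 to 0.185 in their deviations from the group means, 3 of 5 pairs above 0.1. Samples with different numbers correlated at -0.164 to 0.248, and 4 of 10 samples correlated best with their own number. These values do not settle whether the numbers pair the samples. The main fit left the numbers out, and a fit with the replicate number as a block is given beside it. With the replicate block 2182 genes were called, 5 of the 9 (Dusp16 was not), and 1 of the other phosphatases. Among the pathway genes named by the rule, Map2k1, Elk4, Mapkapk5 and Ppp2r5a lost their calls with the block and Egr1 gained one. Genes outside the rule gained calls too. The ERK feedback list had 6 calls with the block, 4 of them shared with the main fit. Effectors had 2, of which 1 was shared. Low depth limits Dusp4 and the heterozygote level of Dusp26, with 3 to 31 counts per library.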
